A study of Mus musculus with 6 samples.

Results

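The interferon gamma axis was followed here through 6 genes chosen by name out of the 32285 genes of the expression matrices: the cytokine gene Ifng, the transcription factor gene Tbx21, the receptor chain genes Ifngr1 and Ifngr2, and the chemokine genes Cxcl9 and Cxcl10. All 6 were found, each as a single gene. The cells came from the right lungs of 6 male mice, 12 weeks old, of the genotype hCTLA4, in which exons 2 and 3 of mouse Ctla4 on a C57BL/6 background are replaced by the human ones, so that the human CTLA4 antibody ipilimumab can bind. All mice, the controls included, received bleomycin into the oropharynx at 1.25 U/kg in 2 doses given 2 weeks apart, which injures the lung and leaves fibrosis. From day 21 after the second dose, 3 mice received IgG1 isotype control and 3 received ipilimumab (labelled anti-CLTA4 mAb), at 5 mg/kg for 4.5 weeks. Each lung gave a 10x Genomics 3' library of its own, and no uninjured mouse was analysed here.

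Interferon gamma is a cytokine made mainly by natural killer (NK) cells and by type 1 T cells, and T-bet, the product of Tbx21, is the transcription factor that drives this program and binds at Ifng itself. The cytokine is sensed by a receptor built of a ligand-binding chain, IFNGR1, and a second chain, IFNGR2, that brings the kinase JAK2 and without which no signal is passed on. Signaling cells, with the help of the transcription factor IRF1, then transcribe CXCL9 and CXCL10, chemokines that attract T and NK cells through CXCR3, and Cxcl10 can also be induced by type I interferon and NF-kappa-B.

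The promoters of the cytokine gene and of the 2 chemokine genes are shown because they are the regulatory ends of the axis, where signals meet the genes measured below. In GRCm38 with GENCODE M21, the annotation of the coordinates given here, Ifng (ENSMUSG00000055170) lies on the plus strand of chromosome 10 from 118441046 to 118445892. Cxcl9 (ENSMUSG00000029417) lies on the minus strand of chromosome 5 from 92321347 to 92328079, and Cxcl10 (ENSMUSG00000034855) on the same strand from 92346638 to 92348889, 18558 bases apart. Tbx21 (ENSMUSG00000001444) lies on the minus strand of chromosome 11 from 97098071 to 97115331, Ifngr1 (ENSMUSG00000020009) on the plus strand of chromosome 10 from 19591949 to 19610229, and Ifngr2 (ENSMUSG00000022965) on the plus strand of chromosome 16 from 91547072 to 91565623. The sequences are the 250 bases before the gene start from RefSeq promoters on GRCm38.p6, written 5' to 3' on the strand of the gene, at chr10:118440796-118441045 (plus), chr5:92328080-92328329 (minus) and chr5:92348890-92349139 (minus). Capitals mark matches to the motifs described next.
Ifng: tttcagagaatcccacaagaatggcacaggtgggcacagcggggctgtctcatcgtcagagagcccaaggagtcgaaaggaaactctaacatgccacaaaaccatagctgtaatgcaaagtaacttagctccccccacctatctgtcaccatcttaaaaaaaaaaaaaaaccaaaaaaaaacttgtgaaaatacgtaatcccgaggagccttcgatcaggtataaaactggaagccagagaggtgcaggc
Cxcl9: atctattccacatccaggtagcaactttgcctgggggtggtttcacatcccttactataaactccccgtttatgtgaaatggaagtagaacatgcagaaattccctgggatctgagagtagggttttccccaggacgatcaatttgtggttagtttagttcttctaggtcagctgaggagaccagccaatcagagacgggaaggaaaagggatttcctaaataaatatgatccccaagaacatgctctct
Cxcl10: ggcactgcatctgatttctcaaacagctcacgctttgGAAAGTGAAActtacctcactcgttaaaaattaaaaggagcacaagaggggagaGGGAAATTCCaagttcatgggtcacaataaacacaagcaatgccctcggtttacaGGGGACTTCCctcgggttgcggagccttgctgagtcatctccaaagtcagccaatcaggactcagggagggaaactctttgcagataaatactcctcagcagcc

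In all, 3 motifs were searched on both strands of these 250 bases, and all 6 genes matched the promoter table. The interferon-stimulated response element core was written as GAAA and GAAA with any 2 bases between (held by 2.98% of the 32851 promoters of the table), the NF-kappa-B site as GGG and TTCC with any 3 bases between (4.65%), and the T-box core as AGGTGTGA (1.12%). The Cxcl10 window held 1 response element match, GAAAGTGAAA, from 213 to 204 bases before the start, and 2 NF-kappa-B matches, GGGAAATTCC from 159 to 150 and GGGGACTTCC from 104 to 95. Ifngr2 held 1 NF-kappa-B match, and the letters of these motifs were not found in the windows of Ifng, Cxcl9, Tbx21 and Ifngr1. The GC content of the windows was 45.2% for Ifng, 44.4% for Cxcl9 and 48% for Cxcl10, below the median of 52.4% over the table, and 60.8% for Tbx21, 59.2% for Ifngr1 and 74% for Ifngr2, above it.

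After cell calling, the libraries of the IgG1 mice held 4349, 4228 and 3268 cells and those of the ipilimumab mice 4351, 4003 and 4062, from 37666042 to 48612412 unique molecular identifiers (UMIs, counted transcripts) per library. Of these 24261 cells, 22851 fell into 33 gates, each defined by 6 marker genes of a cell type, or by a few genes within T, endothelial and fibroblast cells. None of the 6 genes was used for a gate. Pairs of libraries shared 0 to 9 barcodes. Ipilimumab replicate 1 stood apart, with 78.9% of its UMIs in called cells against 92.4% to 93.1% in the other libraries, and with 90 of the 107 alveolar type 2 cells. Ambient RNA, the free RNA of the suspension, made up an estimated 1.30% of lymphocyte UMIs in that library and 0.355% to 0.910% in the others. Levels below are UMIs per 1000000 UMIs of the gate in 1 mouse (CPM), values are given in the order IgG1 replicates 1, 2 and 3 and then ipilimumab replicates 1, 2 and 3, and a mean over mice takes those with at least 20 cells of the gate. A sum over a gate cannot tell more cells with the transcript from more transcript per cell, so shares of cells with a UMI are given beside the levels where a result turns on them.

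Ifng was found in NK and T cells. In NK cells its level was 188, 132 and 224 CPM in the IgG1 mice and 221, 167 and 86.5 CPM in the ipilimumab mice (170 ± 53.3, SD, n = 6). In CD8 T cells with Ccl5, a chemokine gene of effector and memory cells, it was 93.1, 58.1 and 104 CPM and 120, 118 and 40.8 CPM (89.0 ± 32.6, SD, n = 6). NK cells were the higher of both in 6 of 6 mice, although the ranges over mice overlapped. CD4 T cells with Icos, a costimulatory receptor of activated cells, held 42.0, 51.7 and 41.9 CPM and 107, 48.5 and 50.5 CPM. Unconventional T cells (Trdc, Il23r or Zbtb16) held 50.7, 42.7 and 117 CPM and 48.6, 29.2 and 29.96 CPM. These 2 gates overlapped with each other and with the Ccl5-positive CD8 T cells, so their order was not resolved. T cells of no other T gate, called other T, held a mean of 30.4 CPM, and Foxp3-positive regulatory T cells 8.70 ± 10.7 CPM (SD, n = 4). Here and below, the 4 mice with at least 20 regulatory T cells were IgG1 replicate 2 and all 3 ipilimumab mice. IgG1 replicates 1 and 3 had 17 and 18 of these cells. Naive-like CD4 T cells held 10.3 ± 13.7 CPM (SD, n = 6), where 29 of all 45 UMIs lay in 1 cell of IgG1 replicate 3, without which that mouse fell from 37.6 to 1.29 CPM. Naive-like CD8 T cells held 3.42 ± 2.42 CPM.

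Outside NK and T cells, Ifng was low. B cells held 0.896 ± 0.252 CPM (SD, n = 6), above the level that ambient RNA of the same library would give in lymphocytes (0.0378 to 1.06 CPM) in 5 of 6 mice. The 59 type 2 innate lymphoid cells held 4 UMIs in 3 cells, 8.10 CPM when pooled over the mice, with under 20 cells in each mouse. The 328 aerocytes (a capillary endothelium with Car4) and the 615 other blood endothelial cells held no UMI of it. A UMI of Ifng was seen in 561 of 1416 NK cells (39.6%, exact 95% interval 37.1% to 42.2%) at a median of 6009.5 UMIs per cell, in 206 of 701 Ccl5-positive CD8 T cells (29.4%, 26.0% to 32.9%) at a median of 9279, and in 43 of 8574 B cells (0.502%, 0.363% to 0.675%) at a median of 5616. These intervals cover counting error only. Of all 3816 Ifng UMIs of the lungs, 40.8% were in NK cells, 18.1% in Ccl5-positive CD8 T cells, 13.5% in Icos-positive CD4 T cells and 8.1% in unconventional T cells. Within a gate the UMIs were uneven: 1 NK cell of ipilimumab replicate 1 held 82 of them, and without it that mouse was at 158 CPM rather than 221 CPM.

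**Figure D1:**
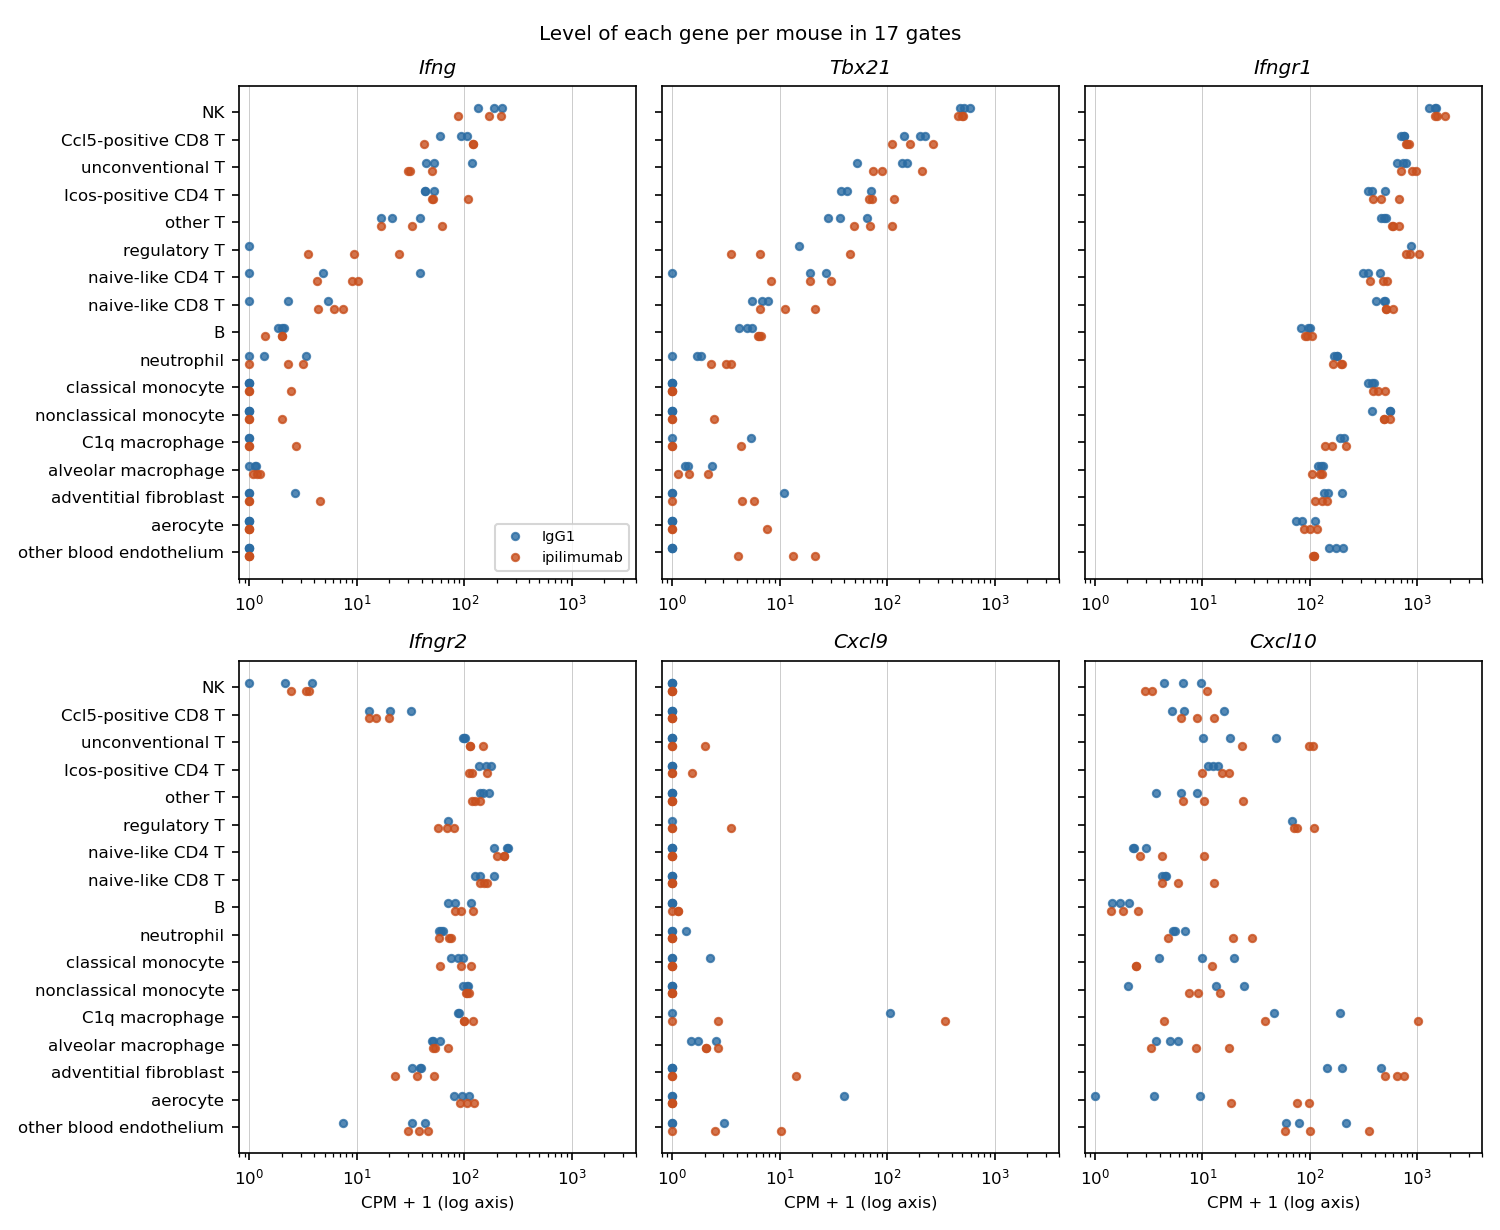
Levels of the 6 genes in CPM (log axis) for each mouse across the gates, with IgG1 and ipilimumab mice in separate colors. Ifng and Tbx21 are highest in NK cells and then in Ccl5-positive CD8 T cells, Ifngr2 is lowest in NK cells, and Cxcl10 is highest in adventitial fibroblasts.

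Tbx21 was likewise highest in NK cells and next in Ccl5-positive CD8 T cells. In NK cells its level was 596, 472 and 521 CPM in the IgG1 mice and 495, 511 and 458 CPM in the ipilimumab mice, and 84.6% of the cells had a UMI. In Ccl5-positive CD8 T cells it was 202, 143 and 226 CPM and 268, 161 and 110 CPM, with a UMI in 60.3% of the cells. No value of an NK gate reached down to those of the CD8 T cells. Unconventional T cells followed with 119 ± 58.3 CPM, Icos-positive CD4 T cells with 66.9 ± 28.1 CPM and other T cells with 58.9 ± 29.7 CPM (SD, n = 6 each), and these 3 gates overlapped. B cells held 4.70 CPM on average (3.17 to 5.77 CPM), above the 0.0546 to 0.633 CPM expected of ambient RNA in lymphocytes, and classical monocytes held no UMI. Across the 17 gates with enough cells, which share their libraries, Tbx21 was the gene whose log2 level was most like that of Ifng among 7333 genes (Pearson r = 0.99), followed by the death ligand gene Fasl (0.99), Ccl5 (0.96), the granule gene Nkg7 (0.93) and Stk32c (0.92), of which Ccl5 had defined a gate. For Tbx21 the 5 genes were Ifng, Fasl, Ccl5, Gzma and Nkg7, with Gzma an NK gate marker.

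Between gates of the same lungs, Ifng and Tbx21 were compared by the edgeR quasi-likelihood test with mouse as a block. In NK against Ccl5-positive CD8 T cells, 44.5% of 8510 genes were called, 22.1% higher and 22.4% lower. Ifng was higher in NK cells by 0.80 ± 0.0966 (log2, SE, adjusted p = 9.2e-07) and Tbx21 by 1.35 ± 0.103 (adjusted p = 1.3e-09). In Ccl5-positive against naive-like CD8 T cells, with 30.9% of 8436 genes called (16.6% higher, 14.2% lower), Tbx21 was higher by 4.30 ± 0.163 (log2, SE) in 6 of 6 mice. Ifng was higher by 4.51 ± 0.25 in as many mice, but within naive-like CD8 or CD4 T cells it did not pass the low-count filter, and a gene that enters through the higher gate alone had to differ, so its differences from these gates are a description. In Icos-positive CD4 T cells against regulatory T cells, 9.56% of 7156 genes were called over 4 mice (3.98% higher, 5.58% lower). Ifng was higher in the Icos-positive cells by 2.96 ± 0.49 and Tbx21 by 2.29 ± 0.454 (log2, SE), each in 4 of 4 mice. Regulatory T cells held only 12 UMIs of Ifng and 20 of Tbx21, so these 2 differences are also a description. Against naive-like CD4 T cells, a comparison added after the values were seen with 20.9% of 7310 genes called (11.9% higher, 8.99% lower), the Icos-positive cells were higher by 2.19 ± 0.356 for Ifng and by 1.83 ± 0.226 for Tbx21.

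Genes of a list named for type 1 inducers and Ifng transcription were higher along with Ifng in part of these comparisons. Whether they raise or lower Ifng in these cells was not tested. Of 15 type 1 inducer and Ifng transcription genes, 8 could be tested in NK against Ccl5-positive CD8 T cells and 7 were called higher, at a median of 1.29 against -0.01 (log2) over all genes. They were Il12rb2, a chain of the interleukin-12 receptor (2.38), the T-box factor gene Eomes (2.05), the interleukin-18 receptor genes Il18rap (1.82) and Il18r1 (1.26), Prdm1 (1.32), Zeb2 (0.86) and Stat4, which transmits the interleukin-12 signal (0.24). In Ccl5-positive against naive-like CD8 T cells, 8 of 8 were called higher, with a median of 2.17 against 0.00 over all genes. Within naive-like CD8 T cells only 6 genes of the list passed the low-count filter. A gene that entered through the higher gate alone had to differ, so this count is a description. In Icos-positive against naive-like CD4 T cells, 5 of 7 were called higher, Il18rap by 1.90, Zeb2 by 1.71, Il18r1 by 1.59, Il12rb2 by 1.07 and Stat4 by 0.47. Within naive-like CD4 T cells only 4 genes of the list passed that filter, so this count is a description too. Against regulatory T cells, the same Icos-positive cells had 1 of 7 called higher, Il12rb2 by 3.69, and 2 called lower, Prdm1 by -1.27 and Il18r1 by -0.54. Whether these genes passed the filter within regulatory T cells was not examined, so these counts are a description as well. The chemokine receptor gene Cxcr3 was lower in NK than in Ccl5-positive CD8 T cells (-2.85), as was Dpp4, whose product trims CXCR3 ligands (-6.74). Cxcr3 was higher in Ccl5-positive than in naive-like CD8 T cells (2.87) and in Icos-positive than in naive-like CD4 T cells (2.79). Of Cxcr3 and Dpp4, only 1 passed the low-count filter within NK cells and only 1 within naive-like CD4 T cells. Their differences from these 2 gates are therefore a description.

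Cells with Ifng were more often cells with Tbx21. Each cell was thinned to 3000 UMIs so that depth was equal. Among NK cells, 73.9% of those with an Ifng UMI and 67.1% of those without had a Tbx21 UMI, with the first share the higher in 6 of 6 mice (exact two-sided sign-flip permutation test, p = 0.031, the smallest 6 mice can give). Among Ccl5-positive CD8 T cells the shares were 50.2% and 33.4%, with the first the higher in 5 of 6 mice (exact permutation p = 0.0625). At the own depth of each cell, the CD8 shares were 72.0% and 54.4%, in the same direction in 6 of 6 mice (exact permutation p = 0.031). In both gates most Ifng-positive cells had a Tbx21 UMI at their own depth, 496 of 561 NK cells and 153 of 206 CD8 T cells.

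Ifngr1, the ligand-binding chain, was highest in NK cells and was found in every gate tested. The NK level was 1271, 1466 and 1504 CPM in the IgG1 mice and 1462, 1515 and 1819 CPM in the ipilimumab mice (1506 ± 177, SD, n = 6), with a UMI in 99.4% of the cells. Its lowest NK value lay above all values of the next gates, regulatory T cells at 887 ± 106 CPM (SD, n = 4), unconventional T cells at 789 ± 120 CPM and Ccl5-positive CD8 T cells at 772 ± 44.0 CPM (SD, n = 6 each), and these 3 overlapped with each other. Other T cells (554 ± 81.4 CPM), nonclassical monocytes (506 ± 72.8 CPM), naive-like CD8 T cells (504 ± 57.8 CPM), Icos-positive CD4 T cells (458 ± 123 CPM), naive-like CD4 T cells (412 ± 82.3 CPM) and classical monocytes (406 ± 53.9 CPM) formed an overlapping middle group. Below a gap came C1q macrophages, the interstitial macrophages that express complement C1q, at 182 ± 32.3 CPM (n = 5), and neutrophils at 180 ± 14.5 CPM. The lowest gate was B cells at 93.5 ± 7.30 CPM (SD, n = 6), above the 0.974 to 4.18 CPM expected of ambient RNA in lymphocytes. The genes whose log2 level was most like that of Ifngr1 over the 17 gates were Rnaset2b (r = 0.94), Spn (0.92), Tex2 (0.92), Gm33104 (0.92) and Gtf2b (0.88), of which Spn is a marker of the nonclassical monocyte gate.

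Ifngr2, the signal-passing chain, had a different order, with NK cells at its end. The NK level was 0, 1.14 and 2.80 CPM in the IgG1 mice and 2.33, 1.43 and 2.56 CPM in the ipilimumab mice, from 16 UMIs in 14 of 1416 cells. In 5 of 6 mice it lay above what ambient RNA of the same library would give, which was 0.299 to 0.850 CPM. The next lowest gate was Ccl5-positive CD8 T cells with 31.0, 12.03 and 19.4 CPM and 11.97, 19.1 and 14.2 CPM, 134 UMIs in 66 of 701 cells, and no value of this gate reached the NK values. The highest gate was naive-like CD4 T cells at 248, 186 and 253 CPM and 235, 202 and 232 CPM (226 ± 26.4, SD, n = 6). Naive-like CD8 T cells (151 ± 22.4 CPM), Icos-positive CD4 T cells (143 ± 26.9 CPM), other T cells (139 ± 18.8 CPM) and unconventional T cells (111 ± 19.1 CPM) followed. From these the levels ran down without a gap through nonclassical monocytes (104 ± 4.94 CPM), aerocytes (99.9 ± 15.3 CPM), C1q macrophages (97.8 ± 12.6 CPM, n = 5) and B cells (93.2 ± 19.8 CPM) to alveolar macrophages (54.9 ± 7.89 CPM), adventitial fibroblasts (36.0 ± 9.67 CPM) and other blood endothelium (31.9 ± 13.9 CPM). The genes most like it over the gates were Sgms1 (r = 0.78), C9orf72 (0.71), Sh3bp5 (0.66), St6gal1 (0.64) and St8sia6 (0.61), a weaker likeness than the closest genes of Ifng or Ifngr1 had.

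Both chains were tested between gates. In NK against Ccl5-positive CD8 T cells, Ifngr1 was higher by 0.82 ± 0.0641 (log2, SE, edgeR adjusted p = 1.8e-09) and Ifngr2 lower, at -3.42 ± 0.364, each in 6 of 6 mice. Within NK cells Ifngr2 did not pass the low-count filter, so this second difference is also a description. In Ccl5-positive against naive-like CD8 T cells, Ifngr1 was higher by 0.51 ± 0.0603 and Ifngr2 lower, at -3.19 ± 0.129. Icos-positive CD4 T cells held less Ifngr2 than naive-like CD4 T cells (-0.80 ± 0.104, edgeR adjusted p = 2.6e-06), while Ifngr1 differed by 0.02 ± 0.0837 (adjusted p = 0.926). Against regulatory T cells they held more Ifngr2 (0.95 ± 0.189) and less Ifngr1 (-0.80 ± 0.117). In NK against B cells, a comparison added after the values were seen where 67.9% of 10915 genes were called (33.3% higher, 34.6% lower), Ifngr1 was higher by 3.96 ± 0.0573. Of Ifngr2, B cells held 69.8 to 118 CPM against at most 2.80 CPM in NK cells. C1q macrophages held more of both chains than alveolar macrophages, by 0.75 ± 0.121 for Ifngr1 and 1.02 ± 0.13 for Ifngr2, in 5 of 5 mice, and in this comparison 28.1% of 10367 genes were called, 15.4% higher and 12.8% lower. In classical monocytes against neutrophils, where 76.8% of 6286 genes were called (40.4% higher, 36.4% lower), Ifngr1 was higher by 0.58 ± 0.0972 and Ifngr2 differed by -0.14 ± 0.134 (edgeR adjusted p = 0.341), although by CPM the monocytes were the higher in 6 of 6 mice and the difference was 0.47 when scaled by total UMIs alone.

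Because both chains are needed for a signal, their joint detection was counted at 3000 UMIs per cell. Both were seen in 0.139% of NK cells, with Ifngr1 alone in nearly all of the rest (Ifngr1 in 97.1%, Ifngr2 in 0.236%), and in 1.88% of Ccl5-positive CD8 T cells. Naive-like CD4 T cells (25.9%), naive-like CD8 T cells (25.4%), nonclassical monocytes (21.6%) and other T cells (20.4%) had both most often. Regulatory T cells had both in 14.7%, C1q macrophages in 12.1%, B cells in 4.86% and alveolar macrophages in 3.78%. Missing a chain in a cell of 3000 UMIs does not show that the cell lacks it, so these shares rank gates at equal depth and are not the shares of responsive cells.

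**Figure D2:**
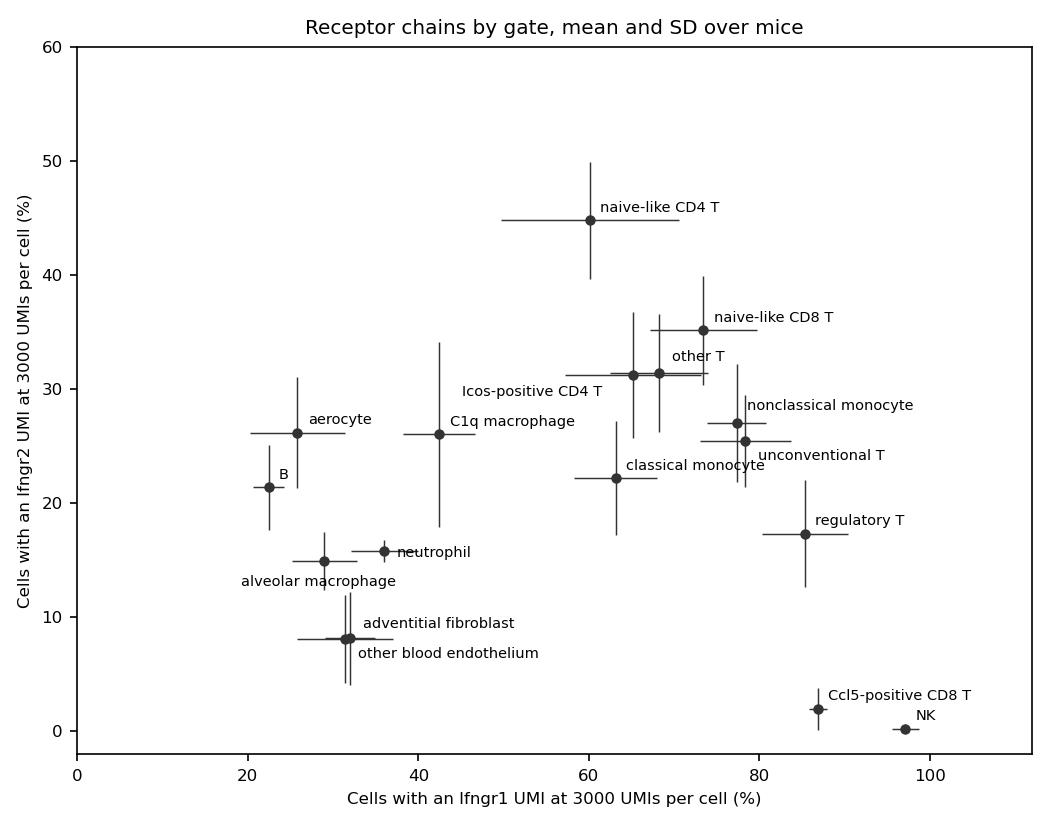
Share of cells with an Ifngr1 UMI (horizontal, percent) against the share with an Ifngr2 UMI (vertical, percent). Each cell was thinned to 3000 UMIs, both axes are linear, and each gate is 1 point with SD bars over mice. NK cells lie at the highest Ifngr1 and the lowest Ifngr2 share, and Ccl5-positive CD8 T cells come next toward that corner. Naive-like CD4 T cells lie at the highest Ifngr2 share.

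The genes that carry the receptor signal did not share 1 direction in these comparisons. Of the 8 receptor signaling genes, NK cells held 2 at higher and 4 at lower levels than Ccl5-positive CD8 T cells: the kinase gene Jak1 (0.28) and the phosphatase gene Ptpn2 (0.27) were higher, and Jak2, the kinase that pairs with IFNGR2 (-1.20), Socs3 (-1.06), Socs1 (-0.89) and Irf1 (-0.33) were lower (log2). In Icos-positive against naive-like CD4 T cells, Jak2 was higher (1.14) and Socs3 (-0.54), Irf1 (-0.31) and Jak1 (-0.26) were lower. In C1q against alveolar macrophages 5 of 7 tested were higher, Socs3 (3.61), Jak2 (1.79), Irf1 (1.44), Ptpn2 (0.67) and Jak1 (0.37), with a median of 0.67 against -0.03 over all genes. There, 8 of 15 genes of the interferon gamma responsive list were higher and 1 was lower, beside 15.4% of all genes higher and 12.8% lower. This list shares Irf1 and Socs1 with the signaling genes. Among the higher were the GTPase gene Gbp3 (2.43), the class II transactivator gene Ciita (2.30) and the Fc receptor gene Fcgr1 (1.29), and the lower was Cd274, which encodes PD-L1 (-0.58).

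Cxcl9 was rare, and a few cells held most of it. All lungs together held 477 UMIs, of which 38.6% were in C1q macrophages. Of the IgG1 mice, replicate 1 was at 0 and replicate 2 at 106 CPM, and replicate 3, with only 13 of these cells, was at 0. The ipilimumab mice were at 346, 1.68 and 0 CPM. These 184 UMIs lay in 4 of 156 cells, 110 of them in 1 cell of ipilimumab replicate 1, without which that mouse was at 0. The spread between mice therefore followed single cells. Alveolar macrophages held 65 UMIs spread thinly over 44 of 2808 cells (1.09 ± 0.453 CPM, SD, n = 6). Type 1 dendritic cells (cDC1), which present antigen to CD8 T cells, had a Cxcl9 UMI in the largest share of cells of the gates named here, 13 of 84 (15.5%, exact 95% interval 8.51% to 25.0%), with 28 UMIs, and type 2 dendritic cells (cDC2) had 39 UMIs in 7 of 87 cells. No UMI was seen in 1416 NK cells, which allows a share of cells with a UMI of up to 0.212%, and 2 of 8574 B cells had one. The gene was also at 0 in Ccl5-positive CD8, naive-like CD4, naive-like CD8 and other T cells and in nonclassical monocytes. Over the gates its level was most like those of Mgl2 (r = 0.96), Retnla (0.95), Cxcl13 (0.95), C1qa (0.95) and C1qc (0.95), of which Mgl2, C1qa and C1qc are gate markers. Only C1q macrophages had a mean above the pseudocount of 10 CPM, with aerocytes next at 6.39 CPM. Genes high in C1q macrophages thus had to come first, and this likeness is a description that rests on 4 cells. The cDC1 and cDC2 gates were too small to be among the 17 gates. Against alveolar macrophages Cxcl9 did not pass the low-count filter, and contrasts between fibroblast gates and between dendritic cell gates could not be fitted because too few mice had 20 cells.

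Cxcl10 had other sources than Cxcl9. Of 5396 UMIs, 27.5% were in adventitial fibroblasts, the collagen-rich cells around vessels and airways, 9.4% in C1q macrophages, 8.5% in alveolar fibroblasts and 7.2% in other blood endothelium. In adventitial fibroblasts the level was 143, 462 and 200 CPM in the IgG1 mice and 494, 640 and 755 CPM in the ipilimumab mice, and 145 of 385 cells had a UMI (37.7%, exact 95% interval 32.8% to 42.7%). B cells, a gate of similar depth (medians of 5616 and 6339 UMIs), had one in 0.397% of 8574 cells. Other blood endothelium was at 78.2, 58.5 and 216 CPM and 57.8, 98.5 and 352 CPM. C1q macrophages ranged widest, with 45.3 CPM in the first and 188 CPM in the second IgG1 mouse and with 1014, 3.37 and 37.3 CPM after ipilimumab, and 321 of their 509 UMIs were in 1 cell of ipilimumab replicate 1, without which that mouse was at 3.60 CPM. The gate of 56 alveolar fibroblasts held 461 UMIs in 19 cells, 264 of them in 1 cell of IgG1 replicate 2. Aside from the stroma and macrophages, regulatory T cells held 80.4 ± 19.6 CPM (SD, n = 4) in 29 of 151 cells (19.2%, 13.3% to 26.4%). Unconventional T cells held 50.1 ± 42.6 CPM (SD, n = 6), 309 UMIs in 56 of 534 cells. These 2 gates overlapped, with regulatory T cells the higher in 3 of 4 mice. Icos-positive CD4 T cells held 12.4 ± 2.80 CPM (SD, n = 6). The genes whose level was most like that of Cxcl10 over the gates were Itga9 (r = 0.88), Ube2e2 (0.86), Palld (0.86), Mmp14 (0.86) and Vcam1 (0.85).

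Cxcl10 differed between several gates. Adventitial fibroblasts held more than other blood endothelium, by 1.94 ± 0.333 (log2, SE, edgeR adjusted p = 5.9e-05), in a comparison added after the values were seen where 67.7% of 6325 genes were called, 36.2% higher and 31.5% lower. In it, 14 of 16 tested interferon gamma responsive genes were lower in the fibroblasts and none was called higher, at a median of -1.92 against 0.07 over all genes, with Gbp4 at -6.97 and Cd274 at -3.32. Within the fibroblasts 13 genes of the list passed the low-count filter, and within the endothelium 17. Genes that entered through the endothelium alone had to be lower, so the count of 14 is a description. Ifngr1 and Ifngr2 differed by 0.30 ± 0.165 (edgeR adjusted p = 0.122) and 0.34 ± 0.275 (edgeR adjusted p = 0.292). C1q macrophages held more Cxcl10 than alveolar macrophages, by 4.58 ± 0.616 (edgeR adjusted p = 3.0e-05), in 4 of 5 mice, and by 3.87 without ipilimumab replicate 1. Without the highest cell of each mouse, C1q macrophages were at 36.9 and 54.6 CPM in IgG1 replicates 1 and 2. In the ipilimumab mice they were then at 3.60, 1.74 and 7.88 CPM. Alveolar macrophages with all their cells ran from 2.29 to 16.6 CPM, the highest mouse being at 2.81 CPM without 1 cell. The difference without these cells was not tested. Regulatory T cells held more than Icos-positive CD4 T cells, which were at -2.66 ± 0.302 (edgeR adjusted p = 1.9e-05) in 4 of 4 mice, IgG1 replicate 2 and the 3 ipilimumab mice. Of the mice left out, IgG1 replicate 1 held 0 Cxcl10 UMIs in 17 regulatory T cells and IgG1 replicate 3 held 17 in 18. In the same comparison, 4 of 15 tested responsive genes were lower in the Icos-positive cells, Gbp3 (-1.95), Gbp7 (-1.34), Cd274 (-0.73) and Psmb8 (-0.50), and 1 was higher, Ccl5 (3.29), beside 5.58% of all genes lower and 3.98% higher. Whether these genes passed the low-count filter within regulatory T cells was not examined, so these counts are a description.

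**Figure D3:**
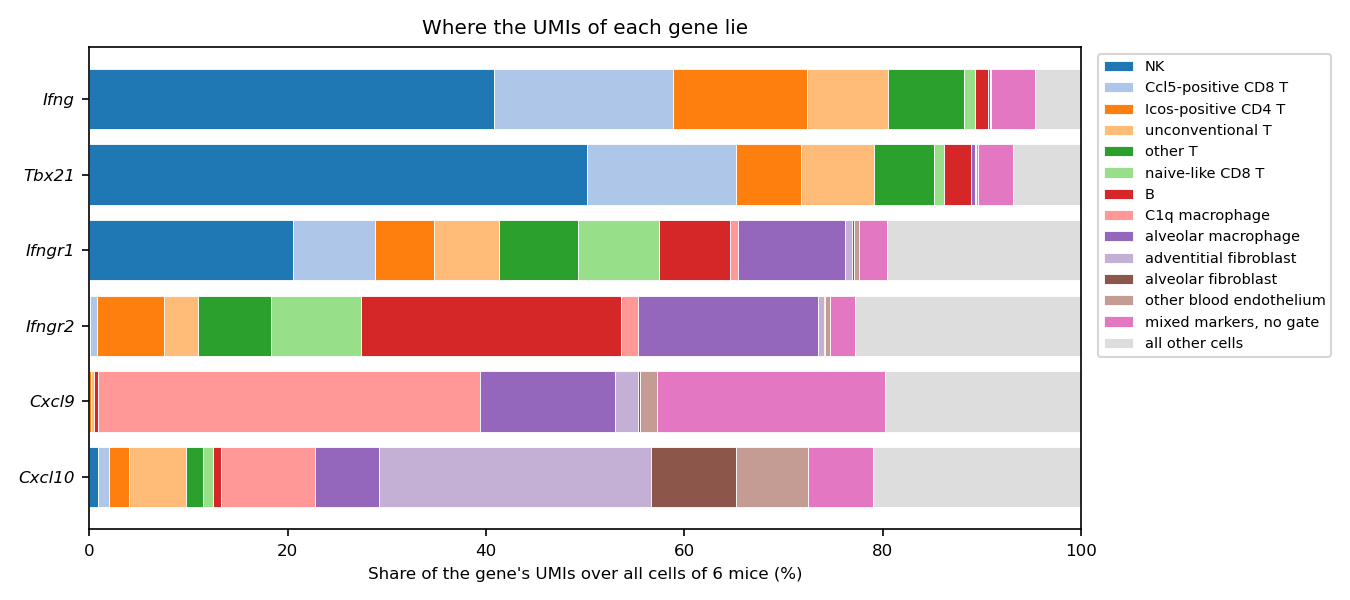
Share of the UMIs of each gene (percent of all its UMIs, stacked bars from 0) held by each gate over the 6 lungs. Ifng and Tbx21 come mostly from NK and T cells, Cxcl9 from C1q macrophages and cells of mixed markers, and Cxcl10 from fibroblasts and many smaller sources.

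At the own depth of each cell, 4 C1q macrophages had a Cxcl9 UMI and 25 a Cxcl10 UMI, and 3 had both. At 3000 UMIs per cell, 15 C1q macrophages had a Cxcl10 UMI and 2 of these had a Cxcl9 UMI, and the share with Cxcl9 was higher among Cxcl10-positive cells in 2 mice and equal in the rest (exact two-sided sign-flip permutation test, p = 0.5). Over the 17 gates the levels of Cxcl9 and Cxcl10 had a correlation of 0.55 on the log2 scale, those of Ifng and Ifngr1 0.76, and those of Ifngr1 and Ifngr2 -0.19, given as descriptions over gates that share libraries.

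The study asked what ipilimumab changes in the fibrotic lung, and each gene was therefore compared between ipilimumab and IgG1 within each gate. Of 96 pairs of a gene with 1 of 16 gates, 54 passed the low-count filter and none was called (edgeR quasi-likelihood test with Benjamini-Hochberg adjustment over all genes of the gate). The share of all genes called was 0% in 14 of these gates, 0.0165% in naive-like CD4 T cells and 0.138% in other T cells. At an unadjusted p under 0.05 there were 13 of the 54 pairs, beside 5.97% of the 124921 tests of all genes in these gates, and 41 of the 54 were higher in ipilimumab mice, which are not independent because genes and gates share mice. None of the 12 treatment results repeated with DESeq2 was called either. In 7 pairs all ipilimumab values in CPM lay above all IgG1 values and in 2 pairs below, where over all genes and the 16 gates 5.94% of pairs did so upward and 5.76% downward.

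Ifng did not differ by treatment beyond the spread of the mice in its main sources. In NK cells, whose IgG1 and ipilimumab values given above overlapped, the difference was -0.19 ± 0.235 (log2, SE, edgeR adjusted p = 0.940). In Ccl5-positive CD8 T cells it was 0.15 ± 0.298 (edgeR adjusted p = 0.993). Ipilimumab replicate 3 had the lowest Ifng level of all 6 mice in both gates, and without it the NK difference was 0.11. The effects in the 2 gates differed by -0.32 ± 0.185 (interaction of gate and treatment, edgeR adjusted p = 0.954). The share of NK cells with an Ifng UMI was 43.4% ± 7.24 in IgG1 and 37.2% ± 10.2 in ipilimumab mice (SD, n = 3 each, exact permutation p = 0.5), and that of CD8 T cells 32.7% ± 4.18 and 25.1% ± 7.12 (exact permutation p = 0.2, where 3 against 3 mice cannot go below 0.1). In Icos-positive CD4 T cells the level differed by 0.57 ± 0.265 (edgeR adjusted p = 0.791), with ipilimumab replicate 1 at 107 CPM and the other 5 mice between 41.9 and 51.7 CPM, and by 0.12 without that mouse. In unconventional T cells, also past an unadjusted 0.05, it differed by -0.92 ± 0.369 (edgeR adjusted p = 0.756), with IgG1 replicate 3 highest.

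Tbx21 also overlapped between treatments in NK cells (-0.11 ± 0.106, log2, SE, edgeR adjusted p = 0.926) and Ccl5-positive CD8 T cells (-0.07 ± 0.239, adjusted p = 0.994). In 4 gates it was past an unadjusted 0.05. In Icos-positive CD4 T cells the level was 41.1, 36.5 and 70.2 CPM in IgG1 and 115, 71.7 and 66.8 CPM in ipilimumab mice (0.72 ± 0.254, edgeR adjusted p = 0.637). In other T cells it was 63.8, 27.2 and 35.6 CPM and 110, 68.0 and 48.2 CPM (0.82 ± 0.28, edgeR adjusted p = 0.353). In naive-like CD8 T cells the difference was 1.02 ± 0.41 (edgeR adjusted p = 0.734) and in B cells 0.50 ± 0.208 (edgeR adjusted p = 0.685), both from low levels. In other T cells Gzma, which encodes a cytotoxic granule protease and is 1 of the 6 NK gate markers, and Zeb2 were called higher, by 3.11 ± 0.351 (edgeR adjusted p = 0.0016) and 1.44 ± 0.229 (edgeR adjusted p = 0.0183). The summed NK markers of other T cells ran from 34.5 to 86.1 CPM in IgG1 and from 144 to 397 CPM in ipilimumab mice, against at least 10914 CPM in NK cells. Of the 6 markers only Gzma did not overlap between treatments, and Ncr1, Klrb1c, Klre1, Klra8 and Klra4 stayed at or below 20.4 CPM in every mouse. In Icos-positive CD4 T cells the summed NK markers were 102 CPM in ipilimumab replicate 1 and at most 16.8 CPM in the other mice, and their part in the result was not tested.

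Of the receptor chains, Ifngr1 passed the filter in 16 gates and was higher in ipilimumab mice in 12 of them, with differences from -0.69 to 0.34 (log2) and a median of 0.15. In other T cells its level was 491, 509 and 461 CPM in IgG1 and 584, 596 and 680 CPM in ipilimumab mice (0.34 ± 0.105, edgeR adjusted p = 0.306), without overlap, as for 8.24% of the genes of that gate. Values also did not overlap upward in Ccl5-positive CD8 T cells (711, 748 and 753 CPM against 783, 798 and 837 CPM, 4.22% of genes) and naive-like CD8 T cells (415, 500 and 494 CPM against 506, 514 and 597 CPM, 4.19% of genes). In classical monocytes they overlapped (397, 343 and 378 CPM against 433, 499 and 384 CPM). In other blood endothelium they ran the other way, at 174, 150 and 201 CPM in IgG1 and 108, 107 and 107 CPM in ipilimumab mice, as for 6.21% of genes (-0.69 ± 0.239, edgeR adjusted p = 0.461). Ifngr2 differed by -0.47 to 0.36 (log2) over 15 gates, and in other T cells its values were lower without overlap (170, 148 and 139 CPM against 138, 116 and 124 CPM), as for 6.37% of genes. Its share in other T cells was 57.5% ± 1.31 of cells with a UMI in IgG1 and 47.4% ± 2.70 in ipilimumab mice (SD, n = 3 each, exact permutation p = 0.1, the smallest possible). At 1000 UMIs per cell the shares were 16.04% and 13.6% and overlapped (exact permutation p = 0.3), and the median depth of these cells was 7959 UMIs in IgG1 and 7221 in ipilimumab mice.

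**Figure D4:**
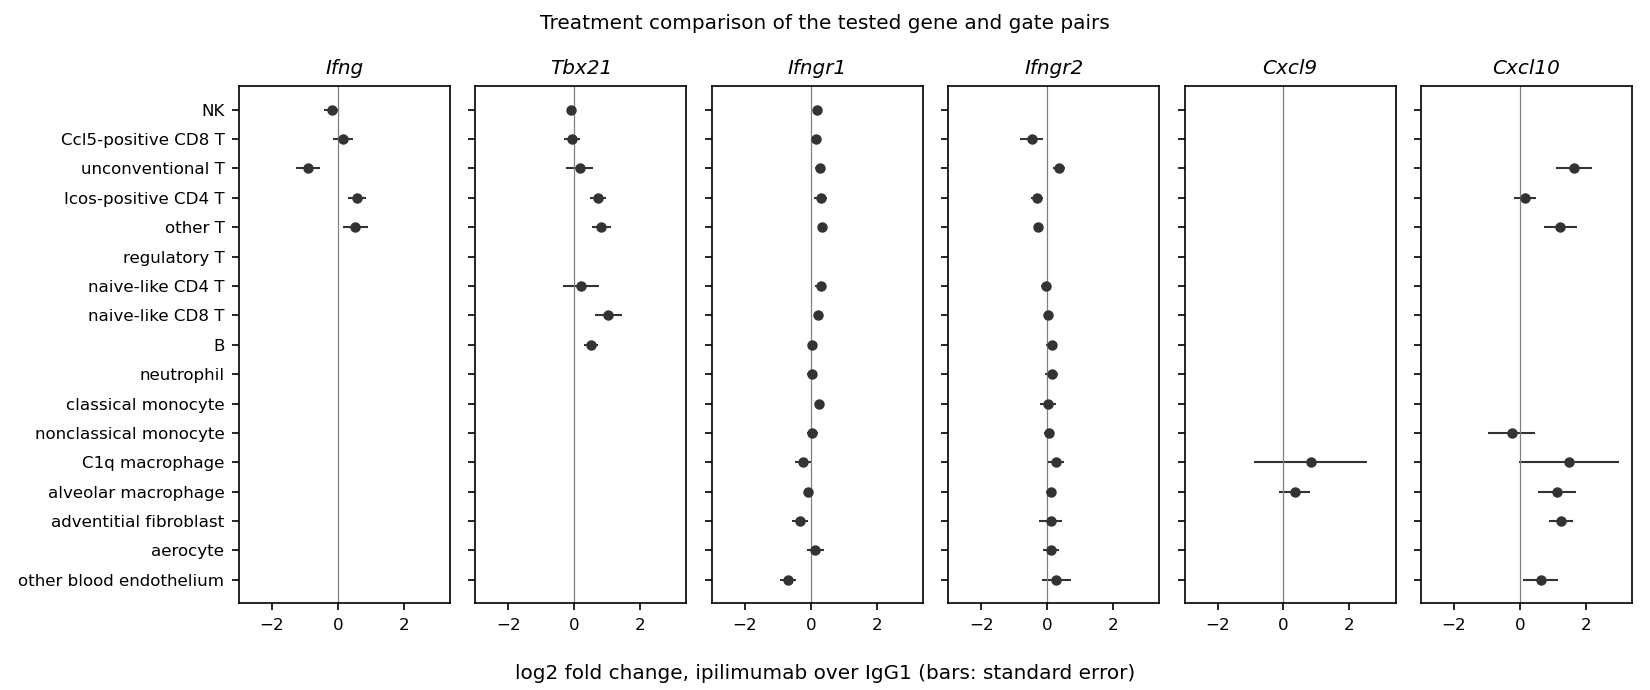
Difference between ipilimumab and IgG1 mice (log2, horizontal) with its standard error for the genes and gates that passed the low-count filter. None of the 54 differences was called, and the widest errors belong to Cxcl9 and Cxcl10 in C1q macrophages.

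Cxcl10 gave the largest treatment differences, and the chemokine genes in C1q macrophages had the largest errors. In C1q macrophages Cxcl9 differed by 0.82 ± 1.72 (log2, SE, edgeR adjusted p = 0.982) and Cxcl10 by 1.49 ± 1.51 (edgeR adjusted p = 0.955), with IgG1 replicate 3 left out for its 13 cells. Without ipilimumab replicate 1 and its single high cell, the Cxcl10 difference turned to -2.43. In adventitial fibroblasts, all ipilimumab values of Cxcl10 lay above all IgG1 values, as was so for 4.64% of the genes tested in that gate, and the difference was 1.24 ± 0.364 (edgeR adjusted p = 1). The UMIs were again uneven: the highest cell of each mouse held 21, 95 and 17 UMIs in IgG1 and 71, 173 and 95 UMIs in ipilimumab mice, from 30, 39 and 74 and from 118, 38 and 86 cells. Without the highest cell of each mouse the levels were 71.4, 209 and 178 CPM and 378, 177 and 646 CPM, and the groups overlapped. The share of these cells with a Cxcl10 UMI was 30.5% ± 12.5 and 41.3% ± 12.8 (SD, n = 3 each, exact permutation p = 0.5), while their median depth was 8471 UMIs in IgG1 and 4280.5 in ipilimumab mice. Cxcl10 was also past an unadjusted 0.05 in unconventional T cells (1.65 ± 0.544, edgeR adjusted p = 0.688), at 16.9, 47.1 and 9.22 CPM against 98.2, 22.5 and 107 CPM, and in other T cells (1.23 ± 0.498, edgeR adjusted p = 0.441). Of the unconventional T cells, 1 cell held 70 of the 109 UMIs of ipilimumab replicate 1, and 1 cell 47 of the 107 of replicate 3. Without the highest cell of each mouse their levels were 9.78, 32.6 and 3.12 CPM against 35.6, 16.1 and 60.3 CPM.

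**Figure D5:**
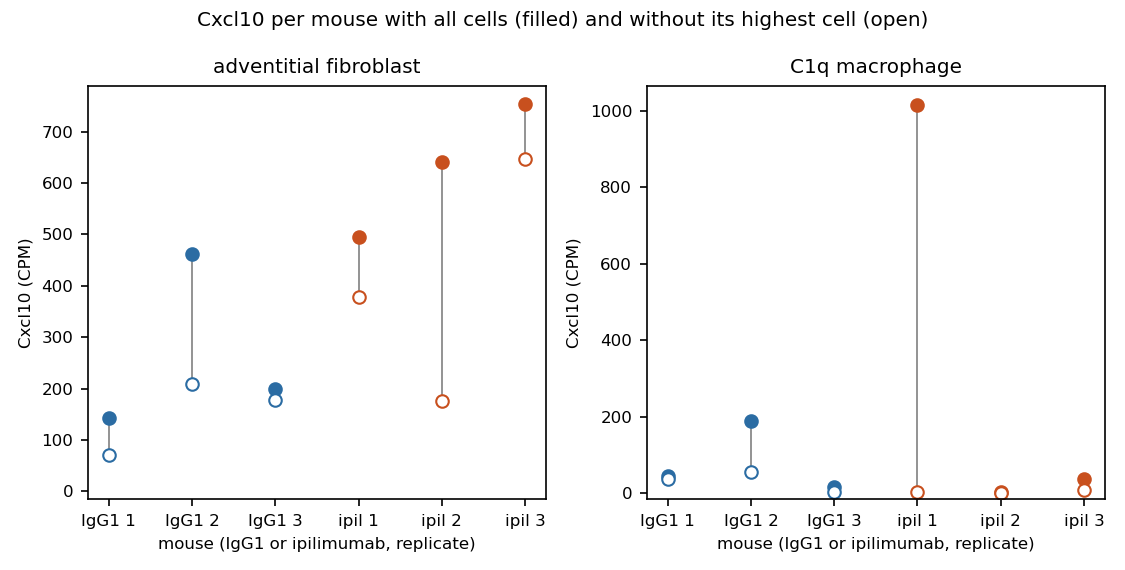
Cxcl10 level (CPM) of adventitial fibroblasts for each of the 6 mice, with all cells and without the cell of most Cxcl10 UMIs. With all cells the ipilimumab mice lie above the IgG1 mice, and without that cell 1 ipilimumab mouse (177 CPM) falls below the highest IgG1 mouse (209 CPM).

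Over the 16 gates, the lists of related genes held 506 treatment tests, in which Irf1 and Socs1 count in both the receptor signaling and the responsive list. They gave 1 call, Zeb2 in other T cells, and 68 had an unadjusted p under 0.05, where 5.97% of all tests did. The medians of the lists by gate ran from -1.03 to 0.69 (log2), the highest being that of the type 1 inducers in Icos-positive CD4 T cells, where 7 of 7 were positive and none was called. Of 238 tests of interferon gamma responsive genes, 138 were positive, 31 had an unadjusted p under 0.05 and none was called, and the median of the list by gate ran from -0.22 to 0.50 (log2) against -0.02 to 0.01 over all genes. In adventitial fibroblasts the 3 of them with the smallest p were the GTPase genes Irgm1 (1.015 ± 0.258), Iigp1 (0.80 ± 0.362) and Gbp5 (0.98 ± 0.46), and in other blood endothelium Cd274 (1.41 ± 0.272, edgeR adjusted p = 0.209), Igtp (0.74 ± 0.273) and Gbp3 (0.76 ± 0.284). In C1q macrophages they were Wars (0.69 ± 0.365), Gbp2 (1.77 ± 1.25) and Ccl5 (-1.04 ± 0.885), none with an unadjusted p under 0.05. Of the inducer list, Prdm1 (-0.55 ± 0.181), Zeb2 (-0.29 ± 0.153) and Eomes (-0.14 ± 0.11) had the smallest p in NK cells, all negative, and Zeb2 (1.20 ± 0.386), Il18r1 (0.91 ± 0.312) and Il12rb2 (0.93 ± 0.409) in Icos-positive CD4 T cells, all positive. The type 2 and 17 counterparts, such as Gata3, could be tested 18 times and were not called, and of the 3 genes of the CXCR3 axis Cxcl11 was not analysed here.

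Across the 6 mice, the Ifng level of NK and T cells together was set against the chemokine levels of C1q macrophages. For Cxcl9 the correlation was r = 0.60 (exact permutation p = 0.233, adjusted over 2 relations 0.253) and rho = 0.39 (exact permutation p = 0.45, adjusted 0.9), and for Cxcl10 r = 0.64 (exact permutation p = 0.253, adjusted 0.253) and rho = 0.086 (exact permutation p = 0.919, adjusted 0.919). Without ipilimumab replicates 1 and 3, farthest from the median Ifng level, r was -0.91 and -0.97, so the positive sign was not kept. Ipilimumab replicate 1 had the highest Ifng level and the highest chemokine levels, 346 CPM of Cxcl9 and 1014 CPM of Cxcl10. Without its highest cell for each gene these were 0 and 3.60 CPM. The 13 C1q macrophages of IgG1 replicate 3, left out of the fits, were included in these correlations.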

How the data were processed

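The authors digested the right lung of each mouse, prepared a 10x Genomics 3' library per lung and aligned the reads to mm10. The deposited files hold counts of UMIs for each gene in all barcodes, empty ones included, before any filter of the authors. The file headers name Cell Ranger 4 and the submitters' processing notes 7.0.0. The later steps of the authors, such as ambient correction, cell names and Seurat tests per cell, were not taken over, because cells are not replicates.

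Cells were called by UMI total or by a profile unlike ambient RNA (false discovery rate 0.01), and barcodes with under 200 genes or over 10% mitochondrial UMIs and the highest doublet scores (0.8% per 1000 cells) were removed. A cell joined a gate with at least 3 of its 6 markers. Ties were left out, and so were cells with 4 or more markers of another family, called mixed. These thresholds were set after the data were seen. UMIs were summed per mouse and gate, and gates with at least 20 cells in at least 2 mice of each group were tested with edgeR 4.0.16 (quasi-likelihood, TMM, filterByExpr, Benjamini-Hochberg over all genes, called at an adjusted p under 0.05), 16 gates in all. Regulatory T cells had no treatment test, and the 13 C1q macrophages of IgG1 replicate 3 were left out of fits. Gates were compared with mouse as a block. Single shares were tested over mice with exact permutation tests, whose smallest p is 0.1 for 3 against 3 mice and 0.031 for 6 sign flips. The p-values measure the spread between these mice, and intervals of shares cover counting error only. Log2 levels for likeness between gates used 10 CPM as pseudocount and genes of at least 50 CPM in a gate.

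The 6 genes and the lists of related genes were chosen with earlier results of these data known. One gene of the lists is not reported here and stays out of their counts. The text names the 6 genes, for each list the genes called or, where fewer than 3 were, the 3 with the smallest p in the gates described, and the 5 genes most alike over gates. Alternatives were DESeq2 1.42.0, total UMIs only, no low-count filter, other cell and gate settings, ambient UMIs subtracted, each mouse left out and the replicate number as a block. On counts simulated for NK cells over 8721 genes, the test called 68% of the genes changed by 1 and 98% of those changed by 2 (log2), with 11 false calls. Python 3.11.15, scanpy 1.11.5, scipy 1.17.1 and R 4.3.3 were used.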

Additional observations from a re-analysis of the deposited data

Results flagged for a closer look

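Ifngr1 in adventitial fibroblasts against other blood endothelium took opposite directions by treatment. In all 3 ipilimumab mice the fibroblasts had the higher level (111.8 against 108, 128 against 107 and 144 against 107 CPM), and in all 3 IgG1 mice the lower one (136 against 174, 147 against 150 and 200 against 201 CPM). Some of these gaps are of a few CPM, and the difference between treatments was not tested. In the mice with at least 20 cells of each gate, the difference in the pooled fit was 0.30 ± 0.165 (log2, SE, edgeR adjusted p = 0.122).

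Signals of 3 genes lay in cells that no gate took. The 280 cells with markers of more than 1 cell family held 169 Ifng UMIs in 41 cells, 91 of the UMIs in ipilimumab replicate 1. The same mixed cells held 110 Cxcl9 UMIs in 7 cells, 74 of them in 1 cell, with 92 in ipilimumab replicate 3 and 18 in ipilimumab replicate 2 and none in the IgG1 mice. The 378 cells tied between gates held 253 Cxcl10 UMIs in 25 cells, of which 168 were in 1 cell and 174 in IgG1 replicate 1. Mixed cells had a median of 22724.5 UMIs and tied cells 19180, against 6009.5 in NK cells. Whether they are doublets was not tested.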

How the results depend on the processing

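In all, 551 results were recomputed under alternatives, of which 526 kept their direction and their side of the threshold, 16 reversed, 3 became called and 6 lost their call. DESeq2, ambient subtraction, a further marker per gate, a stricter limit for mixed cells, no doublet removal and no mouse block changed none of the results they were run on. The called differences between gates that were recomputed, in Ifng, Tbx21, Ifngr1, Ifngr2 and Cxcl10, stayed called in the same direction under each of their alternatives, including each mouse left out. Treatment differences did not have this stability. When only the UMI total called cells, the Cxcl10 difference in C1q macrophages was -2.43 (log2), the same value as without ipilimumab replicate 1. The UMI threshold of that mouse was 3931. At 3000 UMIs or more it held 1 C1q macrophage with a Cxcl10 UMI and 12 without. It thus fell under the 20 cells needed for a fit, and the value is not a separate effect of cell calling. Without the low-count filter the Cxcl10 difference in C1q macrophages was 1.42 and called. So were Cxcl10 in adventitial fibroblasts (1.28) and Cxcl9 in C1q against alveolar macrophages (5.06). The cause of these calls was not tested. Scaled by total UMIs only, Ifngr2 in classical monocytes against neutrophils was 0.47. At 1000 UMIs per cell the share of Ccl5-positive CD8 T cells with an Ifng UMI was 0.930 percentage points higher in ipilimumab mice, against -7.58 at full depth. The excess of Tbx21 among Ifng-positive CD8 T cells was 17.5 points at full depth (exact permutation p = 0.031) and 16.8 at 3000 UMIs. By share of cells, the correlation of Ifng with Cxcl10 was -0.375. The contrasts of Cxcl9 between alveolar and adventitial fibroblasts and between cDC1 and cDC2 were not run, for too few cells.

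Whether the replicate numbers of the labels pair animals cannot be told from 3 mice per group, and they were not used as pairs. Same-numbered mice correlated between -0.15 and 0.11 in B cells, NK cells and alveolar macrophages, and differently numbered ones between -0.22 and 0.20. With the replicate number as a block, the 12 treatment results kept their calls, with -0.22 for Ifng in NK cells, 0.08 for Ifng in Ccl5-positive CD8 T cells and 1.39 for Cxcl10 in adventitial fibroblasts.

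With each mouse left out in turn, the treatment difference (log2) ran from -0.48 to 0.11 for Ifng in NK cells, turning positive without ipilimumab replicate 3. It ran from -0.085 to 0.47 for Ifng in Ccl5-positive CD8 T cells, negative without IgG1 replicate 2 (-0.05), ipilimumab replicate 1 (-0.04) or ipilimumab replicate 2 (-0.085). For Tbx21 in these cells it ran from -0.43 to 0.17, positive without IgG1 replicate 3 (0.07) or ipilimumab replicate 3. In C1q macrophages it ran from -0.059 to 8.77 for Cxcl9, the extremes being without IgG1 replicates 1 and 2, and from -2.43 to 2.87 for Cxcl10, the extremes being without ipilimumab replicate 1 and IgG1 replicate 2. Cxcl10 in other blood endothelium ran from -0.58, without ipilimumab replicate 3, to 1.29, against 0.63 with all mice. Ifngr1 in Icos-positive against naive-like CD4 T cells ran from -0.062, without ipilimumab replicate 3, to 0.073, and was -0.019 without IgG1 replicate 3. The difference in the share of Ccl5-positive CD8 T cells with a Tbx21 UMI ran from -12.2 to 1.33 percentage points, positive without ipilimumab replicate 3. The Tbx21 excess among Ifng-positive NK cells ran from 4.86 to 8.16 points, always positive, where 5 mice cannot reach the threshold. Depth limits Cxcl9 most, with 477 UMIs in all.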

Other observations

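A set of 57 cells carried NK markers together with a Cd3 gene and was given to no gate. It held 69 Ifng UMIs (166 CPM), Tbx21 at 674 CPM, Ifngr1 at 1454 CPM and 4 Ifngr2 UMIs (9.63 CPM), pooled over the 6 mice. These levels lie nearer to those of NK cells than to those of Ccl5-positive CD8 T cells for each of the 4 genes but Ifngr2, which lay between both. The 59 cells of the type 2 innate lymphoid gate held 4 Ifng UMIs in 3 cells and 34 Tbx21 UMIs in 3 cells. In cDC2 Cxcl10 had 51 UMIs in 17 of 87 cells and in cDC1 5 of 84 cells had one, whereas Cxcl9 was seen in 7 and 13 cells of these gates. The difference between the dendritic cell gates was not tested.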
